A study of Mus musculus with 18 samples.

Results

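A set of 10 genes of the bone morphogenetic protein (BMP) and transforming growth factor beta (TGF-beta) pathway were followed through 18 mouse RNA-seq libraries. They are the receptors Acvrl1, Tgfbr1, Bmpr2 and Tgfbr2, the co-receptor Eng, the inhibitory Smads Smad6 and Smad7, and the target genes Id1, Id2 and Id3. The 10 genes were taken by name, through their Ensembl identifiers in the endothelial table of 55401 lines and by symbol in the table of 22612 lines for the EO771 cell line. All 10 were present in both tables, and all 10 passed the filter on low values (a mean of 10 or more in that table).

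The endothelial libraries came from wild-type female C57BL/6 mice. Blood vessel endothelial cells (BECs) were taken from the mammary fat pad of mice without a tumour (BEC normal) or from EO771 primary tumours grown in the fat pad (BEC tumour). High endothelial cells (HECs), which line the venules through which lymphocytes enter lymph nodes, were taken from inguinal lymph nodes of mice without a tumour (HEC normal) or from nodes of EO771-bearing mice, whose tissue is labelled lymph node metastases (HEC tumour). All endothelial cells were sorted as CD45- and CD31-high, with the HEC marker PNAd present on HECs and absent on BECs. EO771 is a mouse breast cancer cell line, and its cultures received vehicle or the arachidonic acid metabolite 12-HETE. Each of the 6 groups held 3 libraries, and the labels do not say which mouse or culture each one came from, so p-values measure the spread between these libraries.

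In this pathway a ligand of the BMP or TGF-beta family brings together type II receptors (Bmpr2, Tgfbr2) and type I receptors (Acvrl1, which encodes ALK1, and Tgfbr1, which encodes ALK5), which phosphorylate Smad proteins that then enter the nucleus. In endothelium, ALK1 with the co-receptor endoglin (Eng) passes BMP9 and BMP10 signals to Smad1, Smad5 and Smad9, while ALK5 signals mainly through Smad2 and Smad3. Id1, Id2 and Id3 are classical targets of the BMP branch, and Smad6 and Smad7 are targets that in turn block the receptors, so all 5 are often read as the output of the pathway.

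Total values ranged from 56.4 M to 79.4 M per endothelial library and total counts from 17.3 M to 18.6 M per EO771 library (M, mega). A search for regular spacing among the low values gave about 3.71 in the endothelial libraries. It gave 4.63 to 4.79 in the EO771 libraries at a similar strength, so it does not set the endothelial values apart. The endothelial numbers were treated as estimated counts, and their scale is not settled. The sorted populations were checked against their markers. Of the 4 HEC markers Enpp2 did not separate the vessel types. Its libraries held 8.14 to 272.3 normalised counts in HEC normal and 66.0 to 95.2 in BEC normal. With a tumour they spanned 138.2 to 245.7 in HECs and 48.8 to 256.3 in BECs. Fut7 was at most 28.4 in any BEC library and at least 14260 in any HEC library, but uneven in HEC tumour (14260 to 66480). Glycam1 and Chst4, which the study used to identify HECs in its single-cell data, were at 0 in all 6 BEC libraries. They averaged 39850 and 13370 normalised counts in HEC normal and 70720 and 60240 in HEC tumour. However, Chst4 held only 4.07 in 1 HEC normal library. The summed level of 10 pan-endothelial genes was 237737 to 249295 in BEC normal, 168053 to 171306 in BEC tumour, 178792 to 189707 in HEC normal and 174699 to 178717 in HEC tumour. Cldn5, a tight junction gene of that list, averaged 17770 in BEC normal and was far lower elsewhere, with HEC normal at 74.7, HEC tumour at 67.2 and BEC tumour at 23.8. The BEC tumour libraries also held RNA of other cells. The sum of 7 myeloid markers was 102325 to 138302 there against 7493 to 8757 in BEC normal, with Lyz2 at 51960 ± 12200 (SD, n = 3) against 283.4 ± 133. The BEC normal libraries held the most fibroblast and pericyte RNA, with 63036 to 63963 over 11 markers against 7286 to 9510 in BEC tumour, 2317 to 2452 in HEC normal and 1251 to 1329 in HEC tumour. These 2 lists move with every BEC comparison below, and their part in it was not tested. In bulk libraries fewer cells of a type and less RNA per cell cannot be told apart.

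Sequence upstream of 2 members is shown because Smad6 and Id2 were among the genes that moved with tumour, and because each stretch holds a motif known as a Smad binding sequence. The entries are RefSeq promoter windows on GRCm38.p6, and 7 of the 10 members were matched to an entry and searched, namely Eng, Bmpr2, Tgfbr1, Tgfbr2, Smad6, Id2 and Id3. The promoters of Acvrl1, Smad7 and Id1 were not analysed here. Capitals mark GTCTAGAC, the palindromic Smad box, in Smad6 and GGCGCC, a GC-rich BMP-Smad sequence, in Id2. Both motifs read the same on both strands, and GTCTAGAC contains the shorter GTCT box. The Smad6 stretch is chr9:64022056-64022309 on the minus strand and runs from 250 bases before the transcript start to the 4th base of the first exon. The Id2 stretch is chr12:25096254-25096342 on the minus strand, the 89 bases of its window that lie outside every annotated exon, within the first intron of a longer Id2 transcript.
Smad6: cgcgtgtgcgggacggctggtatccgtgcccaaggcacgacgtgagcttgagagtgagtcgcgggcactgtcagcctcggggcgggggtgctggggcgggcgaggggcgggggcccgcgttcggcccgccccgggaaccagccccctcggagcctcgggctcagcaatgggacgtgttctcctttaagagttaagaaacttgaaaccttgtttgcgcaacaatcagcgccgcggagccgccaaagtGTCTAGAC
Id2: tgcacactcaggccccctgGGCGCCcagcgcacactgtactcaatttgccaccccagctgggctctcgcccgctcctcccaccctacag
The palindrome straddles the Smad6 transcript start, beginning 4 bases before it, and was found in 56 of 32851 windows of 254 bases (0.17%). GGCGCC began 231 bases before the Id2 start and was found in 9.586% of windows of 250 bases, Bmpr2 and Tgfbr1 included. The 4-letter box GTCT, in either orientation, was in 82.862% of windows and so separates no gene from the rest. A match describes the letters and does not show a bound site.

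On GRCm38 the results turn mainly on Id1 (chr2:152736251-152737410), Id2 (chr12:25093799-25097140), Id3 (chr4:136143497-136145755), Smad6 (chr9:63953076-64022059), Acvrl1 (chr15:101128522-101145336) and Eng (chr2:32646595-32682669). Exons of Acvrl1 and Eng overlap those of Gm16031 and Fpgs on the opposite strand, and whether the counting used strand is not given in the sources used here, so reads of these pairs cannot be told apart. The levels of the members were first ordered within each endothelial group as normalised counts per kb of exon, which allows a comparison between genes. Id1 had the highest level in BEC normal, HEC normal and HEC tumour, at 8595 ± 289, 9276 ± 537 and 17503 ± 714 per kb (SD, n = 3). In BEC tumour the co-receptor Eng was highest at 5794 ± 227 per kb, and Id1 followed at 4131 ± 287. Among the receptors the order was led by Eng in every group, and Bmpr2 had the lowest level of the receptors, at 133.2 to 138.9 per kb. Tgfbr2 and Acvrl1 lay between them, at 1216 and 1568 per kb in BEC normal and 835.3 and 799.5 in HEC tumour. The libraries of Tgfbr2 and Acvrl1 overlapped in HEC normal, HEC tumour and BEC normal, so their order there does not exceed the spread. Id2 went from 211 ± 23 per kb in HEC normal, above only Bmpr2, to 778.5 ± 52.9 in HEC tumour, where it overlapped Acvrl1.

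HEC normal was compared with BEC normal to find how the pathway differs between the 2 vessel types without a tumour. Counts were tested with the DESeq2 Wald test, with p-values adjusted by Benjamini-Hochberg over 18511 genes, and a called gene had both an adjusted p under 0.05 and a fold over 2. Of the members 2 were called, both lower in HECs, against 15.1% of all genes called lower and 17.1% called higher. They were Id2 and Id3, dominant-negative partners of helix-loop-helix transcription factors. Id2 held 551.7, 541.5 and 450.1 normalised counts in the HEC normal libraries and 3684, 3070 and 3321 in BEC normal. The HEC libraries were all far below the BEC ones, with a log2 fold change of −2.71 ± 0.12 (SE, adjusted p = 5.53e-110). Id3 held 1520, 2142 and 1939 in HEC normal and 9601, 10670 and 10590 in BEC normal. Again no library of one group reached the other (−2.46 ± 0.14, adjusted p = 2.57e-72).

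Id1, the third of these targets, did not share this difference. Its libraries held 10040, 11120 and 11120 normalised counts in HEC normal and 9648, 10320 and 9943 in BEC normal, which overlap (0.11 ± 0.07, adjusted p = 0.165). A further 5 members passed the adjusted p without reaching 2-fold, where 63.3% of all genes passed that rule. Eng (−0.93 ± 0.06, adjusted p = 8.98e-51), Acvrl1 (−0.92 ± 0.28, adjusted p = 0.0018), Smad6 (−0.68 ± 0.14, adjusted p = 6.53e-06) and Tgfbr2 (−0.34 ± 0.05, adjusted p = 2.25e-09) were lower in HECs, and Tgfbr1 was higher (0.38 ± 0.15, adjusted p = 0.0211). Smad7 (−0.69 ± 0.40, adjusted p = 0.123) and Bmpr2 (−0.02 ± 0.19, adjusted p = 0.939) passed neither rule. The median log2 fold change of the 10 members was −0.68, beside 0.01 over all genes tested. The call on Acvrl1 turned on single libraries, since the log2 fold change passed 2-fold without BEC normal replicate 1 (−1.11), BEC normal replicate 2 (−1.05) or HEC normal replicate 3 (−1.11) and was −0.55 without BEC normal replicate 3.

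**Figure D1:**
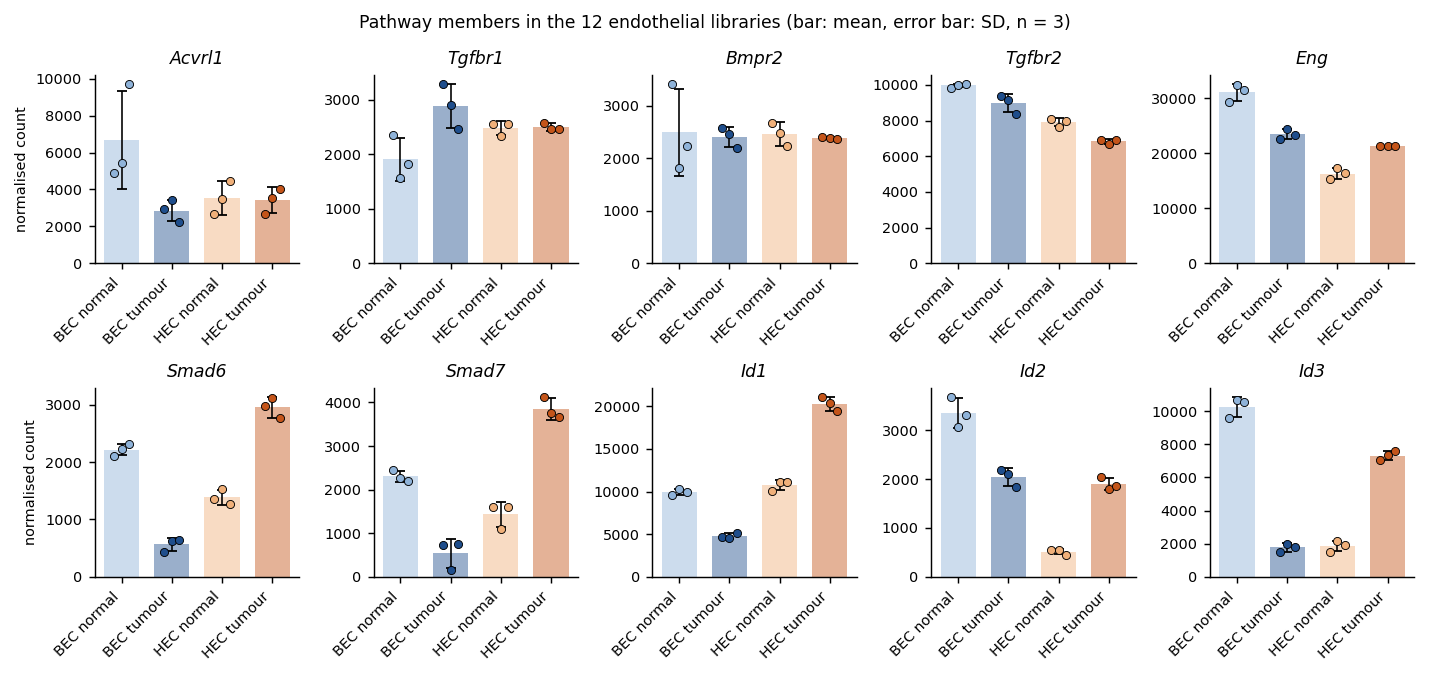
Normalised counts of the 10 members (vertical axes, linear, from 0) in the 4 endothelial groups, with 1 point per library, the mean as a bar and the SD as an error bar (n = 3). Smad6, Smad7, Id1, Id2 and Id3 lie above HEC normal in all HEC tumour libraries and under BEC normal in all BEC tumour libraries, while the means of Bmpr2 lie between 2394 and 2497.

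HEC tumour was then compared with HEC normal, the comparison that shows what changes in high endothelium of a tumour-bearing mouse. Of the members 4 rose, Smad6, Smad7, Id2 and Id3, against 4.58% of all genes called higher, and none fell, against 3.21% called lower. All 4 are target or feedback genes, and none of the 5 receptor genes reached 2-fold. Id3 held 7051, 7341 and 7575 normalised counts in HEC tumour against the 1520 to 2142 of HEC normal, the largest change of a member here (1.97 ± 0.14, adjusted p = 1.22e-45). Id2 held 2040, 1788 and 1866 against 450.1 to 551.7 (1.88 ± 0.12, adjusted p = 4.71e-52). Every tumour library of both genes lay above every normal one by more than 3-fold.

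The inhibitory Smads rose as well. Smad6 held 2986, 3128 and 2767 in HEC tumour and 1361, 1524 and 1272 in HEC normal (1.10 ± 0.14, adjusted p = 5.21e-13). Smad7, which blocks both branches of the pathway, held 4130, 3748 and 3665 against 1602, 1099 and 1602 (1.42 ± 0.40, adjusted p = 0.00172). The groups of both genes did not overlap. Id1, already the most abundant member per kb in HEC normal, held 21070, 20410 and 19430 against 10040, 11120 and 11120. That difference passed the adjusted p and stayed just under 2-fold (0.92 ± 0.07, adjusted p = 1.69e-36).

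The receptors hardly differed between the HEC groups. Eng held 21280, 21250 and 21300 in HEC tumour and 15340, 17250 and 16350 in HEC normal (0.38 ± 0.06, adjusted p = 5.81e-09), and Tgfbr2 was lower (−0.21 ± 0.05, adjusted p = 0.000744). Both passed the adjusted p alone, as did 35.4% of all genes. Acvrl1 (−0.06, 95% interval −0.60 to 0.49, adjusted p = 0.918), Bmpr2 (−0.04, −0.42 to 0.34, adjusted p = 0.91) and Tgfbr1 (0.01, −0.29 to 0.30, adjusted p = 0.984) passed neither rule. These intervals leave out a 2-fold change of any of the 3 receptors. The median of the 10 members was 0.65 on the log2 scale, beside 0.02 over all genes tested. Beside these results 1 of 7 myeloid markers and 4 of 10 tested fibroblast and pericyte markers were lower in HEC tumour, and their part was not tested. The myeloid sum was 33023 to 34682 in HEC normal and 22969 to 24347 in HEC tumour, mostly Cd68, with the defining markers C1qa and Adgre1 at 0 in all 3 HEC tumour libraries.

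BEC tumour was compared with BEC normal, and 5 members fell, Acvrl1, Smad6, Smad7, Id1 and Id3, against 10.8% of all genes called lower, while none rose, against 12.4% called higher. Of these Smad6, Smad7 and Id3 were called higher in HECs with tumour, and the share of all genes called in these opposite directions was not counted. Id3 held 1499, 1997 and 1818 normalised counts in BEC tumour against 9601 to 10670 in BEC normal (−2.54 ± 0.14, adjusted p = 1.28e-76). Smad6 held 429.5, 615.9 and 641.7 against 2116, 2228 and 2310 (−1.98 ± 0.15, adjusted p = 1.55e-40). Id1 held 4691, 4520 and 5164 against 9648, 10320 and 9943 (−1.06 ± 0.07, adjusted p = 2.38e-48). The tumour libraries of these 3 genes lay below all normal ones.

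Smad7 and Acvrl1 rested on less even libraries. Smad7 held 721.7, 152.3 and 738.4 in BEC tumour and 2453, 2266 and 2204 in BEC normal (−2.10 ± 0.40, adjusted p = 6.39e-07), and without the low second library the value was −1.66. Acvrl1, the ALK1 receptor, held 2923, 3413 and 2242 in BEC tumour and 4871, 5458 and 9737 in BEC normal (−1.23 ± 0.28, adjusted p = 3.02e-05). The groups did not overlap, but the highest normal library carried the call: without BEC normal replicate 3 the log2 fold change was −0.86 (adjusted p = 0.00154), under the 2-fold limit, and 4 members were called instead of 5.

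A further 4 members passed the adjusted p alone, as did 53.7% of all genes. Id2 (−0.72 ± 0.12, adjusted p = 3.19e-09), Eng (−0.41 ± 0.06, adjusted p = 1.79e-10) and Tgfbr2 (−0.15 ± 0.05, adjusted p = 0.0119) were lower in BEC tumour, and Tgfbr1 was higher (0.59 ± 0.15, adjusted p = 0.000234). Bmpr2 averaged 2413 and 2497 (−0.05 ± 0.19, adjusted p = 0.853). The median of the 10 members was −0.89 on the log2 scale, beside 0.01 over all genes tested. Beside these falls, all 7 myeloid markers and 5 of 6 epithelial markers were higher in BEC tumour, 8 of 10 tested fibroblast and pericyte markers were lower and 1 was higher, and 3 of 10 pan-endothelial markers were lower. Of 5 lymphatic endothelial markers 2 were lower, Lyve1 (14040 to 3391) and Pdpn (4409 to 1899), and 1 was higher, and their sum was 23752 to 24692 in BEC normal and 13537 to 14904 in BEC tumour. All 4 B cell markers were also higher, at a sum of 180 to 251 against at most 17, as was Cd4. The epithelial RNA was uneven, with 5226 normalised counts over 6 markers in the highest BEC tumour library and 602 and 805 in the others. All 5 falls stayed past both limits when any 1 BEC tumour library was left out, while Acvrl1 was at −0.86 without BEC normal replicate 3. Every BEC tumour library held myeloid RNA, so leaving out 1 of them does not address it. The part of the mixed cells in these falls was not tested.

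Whether the change with tumour differed between the vessel types was tested as the interaction of cell type and tumour in the fit of all 12 libraries. Of the members 6 had a more positive change in HECs than in BECs by over 2-fold, Acvrl1, Smad6, Smad7, Id1, Id2 and Id3, against 11.2% of all genes in that direction and 12.1% in the other, in which no member was called. Id3 had the largest difference of log2 fold changes (4.51 ± 0.19, adjusted p = 3.96e-120). It was followed by Smad7 (3.53 ± 0.57, adjusted p = 3.26e-09), Smad6 (3.07 ± 0.21, adjusted p = 2.91e-49), Id2 (2.60 ± 0.17, adjusted p = 2.25e-52) and Id1 (1.97 ± 0.10, adjusted p = 3.38e-84). All 5 feedback and target genes thus had a difference larger than the spread between libraries.

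The receptors split. Acvrl1 had a difference of 1.17 ± 0.39 (adjusted p = 0.0073), which dropped under 2-fold without BEC normal replicate 3 (0.81, adjusted p = 0.0362) or without HEC normal replicate 1 (1.00, adjusted p = 0.0307). Eng (0.79 ± 0.09, adjusted p = 1.21e-18) and Tgfbr1 (−0.58 ± 0.21, adjusted p = 0.0149) passed the adjusted p alone, as did 46.7% of all genes. Bmpr2 (0.01 ± 0.27, adjusted p = 0.984) and Tgfbr2 (−0.06 ± 0.08, adjusted p = 0.575) passed neither rule. The median difference of the 10 members was 1.57, beside 0.00 over all genes tested.

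**Figure D2:**
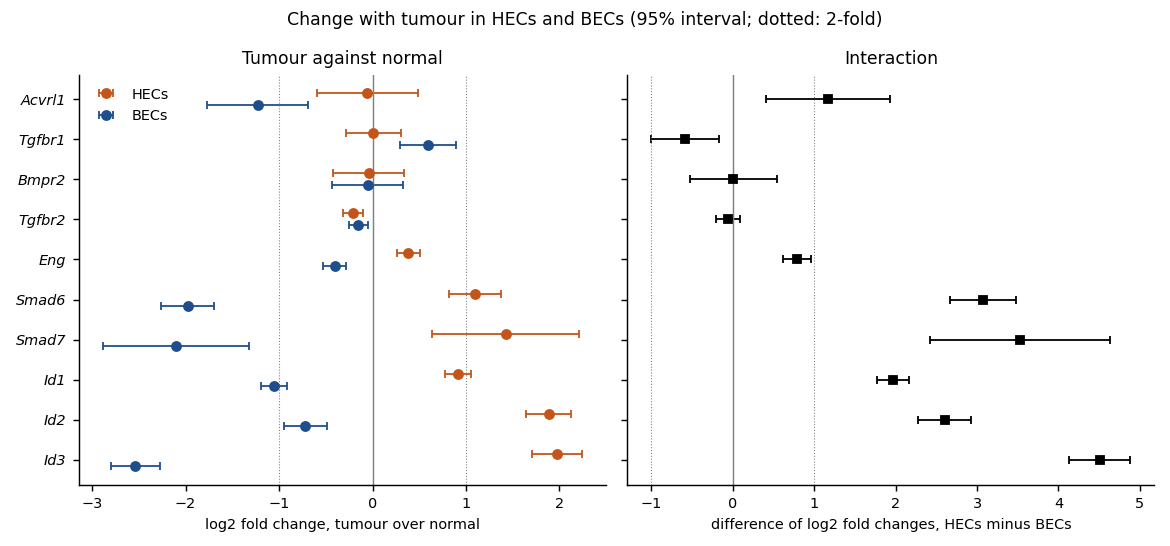
Log2 fold change of each member, tumour over normal, in HECs and BECs on the left, and the difference between the 2 changes on the right, with 95% intervals and dotted lines at 2-fold. Points of Smad6, Smad7, Id1, Id2 and Id3 lie right of 0 in HECs and left of 0 in BECs, and Id3 has the largest difference, 4.51.

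The opposite movements left HECs above BECs in mice with a tumour. In HEC tumour against BEC tumour 4 members were higher, Smad6, Smad7, Id1 and Id3, against 11.2% of all genes called higher, and none was lower, against 10.7%. Smad7 had the largest difference (2.84 ± 0.40, adjusted p = 9.31e-12), and Smad6 (2.40 ± 0.15, adjusted p = 4.46e-59), Id1 (2.08 ± 0.07, adjusted p = 9.02e-187) and Id3 (2.05 ± 0.14, adjusted p = 5.68e-50) followed. Id3 thus changed places, being lower in HECs than in BECs without a tumour and higher with one. Id2 no longer separated the vessel types, with overlapping libraries at 1788 to 2040 and 1827 to 2187 (−0.11 ± 0.12, adjusted p = 0.468). Tgfbr2 (−0.39 ± 0.05, adjusted p = 3.61e-12) and Eng (−0.14 ± 0.06, adjusted p = 0.0408) passed the adjusted p alone, as did 54.3% of all genes. Acvrl1 (0.25 ± 0.28), Bmpr2 (−0.01 ± 0.19) and Tgfbr1 (−0.21 ± 0.15) passed neither rule, at adjusted p of 0.454, 0.966 and 0.24. This comparison shares its libraries with both tumour comparisons and is no separate evidence for them.

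Acvrl1 and Tgfbr1 are the alternative type I receptors of endothelium, so their ratio within each library was taken, which does not depend on library size. The ratio of normalised counts was 2.08, 3.48 and 5.35 in BEC normal and 0.89, 1.18 and 0.91 in BEC tumour. No tumour library reached a normal one, and the difference of the mean log2 ratios was −1.78 with a pooled SD of 0.51 (exact permutation test, two-sided, p = 0.1, n = 3 and 3, the smallest p that 3 against 3 can give). In HECs the ratio was 1.05, 1.50 and 1.74 without a tumour and 1.03, 1.44 and 1.64 with one, a difference of −0.06 on the log2 scale (exact permutation p = 0.7, n = 3 and 3). HEC normal lay below BEC normal (difference −1.28, exact permutation p = 0.1, n = 3 and 3), and HEC tumour overlapped BEC tumour (difference 0.45, exact permutation p = 0.2, n = 3 and 3). With 4 such tests and a smallest p of 0.1, none could reach 0.05.

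**Figure D3:**
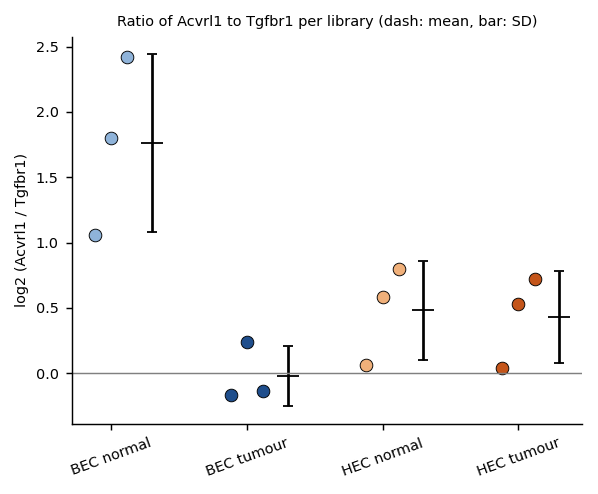
Log2 ratio of Acvrl1 to Tgfbr1 normalised counts in each endothelial library, with the mean (dash) and SD (bar) beside the 3 points of a group. BEC normal spans 1.06 to 2.42, BEC tumour lies around 0, and the HEC groups cover nearly the same range.

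The other genes of the pathway were taken from lists of ligands, receptors, signal-carrying Smads, secreted antagonists and carriers, intracellular and membrane inhibitors, and further targets. With tumour in HECs, 4.58% of all genes were called higher and 3.21% lower. Of 7 tested further targets 1 rose and 1 fell. Ccn2, a matricellular protein, rose from 1571 to 4942 normalised counts (1.65 ± 0.11, adjusted p = 7.07e-51). Tmem100, a target of ALK1, fell from 50.6 to 4.06, levels near the floor of the data. Of 6 intracellular and membrane inhibitors 2 rose, Pmepa1, which sequesters Smad proteins (1.95 ± 0.19, adjusted p = 4.01e-22), and Skil, which represses Smad targets (1.29 ± 0.25, adjusted p = 1.43e-06). Smad9, a BMP-branch Smad, was the 1 of 6 signal-carrying Smads to rise, from 29.3 to 74.3 (1.35 ± 0.30, adjusted p = 3.92e-05), also near the floor. Inhba, the subunit of activin A, was the 1 of 8 tested ligands to rise (1.22 ± 0.19, adjusted p = 7.35e-10). None of 12 tested antagonists and carriers was called. Of 6 tested other receptors 1 was called lower and none higher, Bmpr1a, which went from 18.3 to 0, and 4 were lower and 2 higher on the adjusted p alone. The other receptors had a median of −0.70. The further targets had a median of 0.00, set by Id4 at 0 in both HEC groups, and the intracellular inhibitors of 0.59, beside 0.02 over all genes.

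In BECs most called genes of these lists fell with tumour, where 10.8% of all genes were called lower and 12.4% higher. Of 8 tested ligands 4 fell, Tgfb1 (−1.33 ± 0.08, adjusted p = 3.46e-56), Inhbb (−2.85 ± 0.19, adjusted p = 8.25e-48), Inhba (−2.18 ± 0.19, adjusted p = 1.28e-30) and Tgfb3 (−1.69 ± 0.24, adjusted p = 7.18e-12). Bmp4, named after its values were seen, was the 1 ligand that rose, from 877.3 to 4932 (2.49 ± 0.50, adjusted p = 3.08e-06). Of 12 tested antagonists and carriers 4 fell and 1 rose. The falls included Ltbp1, which stores latent TGF-beta in the matrix, from 18384 to 2791 (−2.72 ± 0.10, adjusted p = 4.77e-173), and the rise was follistatin, Fst, an activin antagonist, from 7532 to 20215 (1.42 ± 0.05, adjusted p = 2.74e-207). The type I BMP receptor Bmpr1a fell from 3281 to 441.4 (−2.89 ± 0.14, adjusted p = 7.12e-88), the only called gene of 6 tested other receptors. Smad9 fell from 1078 to 218.3, Pmepa1 from 3172 to 616.4, Ccn2 from 22089 to 4048, and Atoh8, a BMP target in endothelium, from 4177 to 725.9. The medians were −0.56 for ligands, −0.65 for antagonists and carriers and −1.71 for further targets, beside 0.01 over all genes.

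Inhba, Smad9, Pmepa1 and Ccn2 were called higher in HECs and lower in BECs with tumour, with the HEC values of Smad9 near the floor of the data. Among the other called genes, Tgfb1, Tgfb3, Inhbb, Ltbp1 and Fst were called in BECs only, and Bmpr1a was lower in both. The share of all genes called in opposite directions was not counted, so this crossing is a description. Atoh8, called lower in BECs, was higher in HECs on the adjusted p alone, from 319.0 to 515.5 (0.69 ± 0.14, adjusted p = 1.32e-05), with an interaction of 3.22 ± 0.20 (adjusted p = 1.94e-57). The interaction was 4.32 ± 0.27 for Pmepa1 (adjusted p = 1.48e-55), 4.10 ± 0.15 for Ccn2 (adjusted p = 5.3e-160), 3.65 ± 0.38 for Smad9 (adjusted p = 2e-20) and 3.39 ± 0.26 for Inhba (adjusted p = 7.55e-37). Fibroblasts and pericytes also express Ccn2, Ltbp1 and Inhba. Of 10 tested markers of these cells, 8 were called lower and 1 higher in BEC tumour. In HEC tumour, where Ccn2 and Inhba rose, 4 were called lower and none higher. The part of these cells was not tested.

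**Figure D4:**
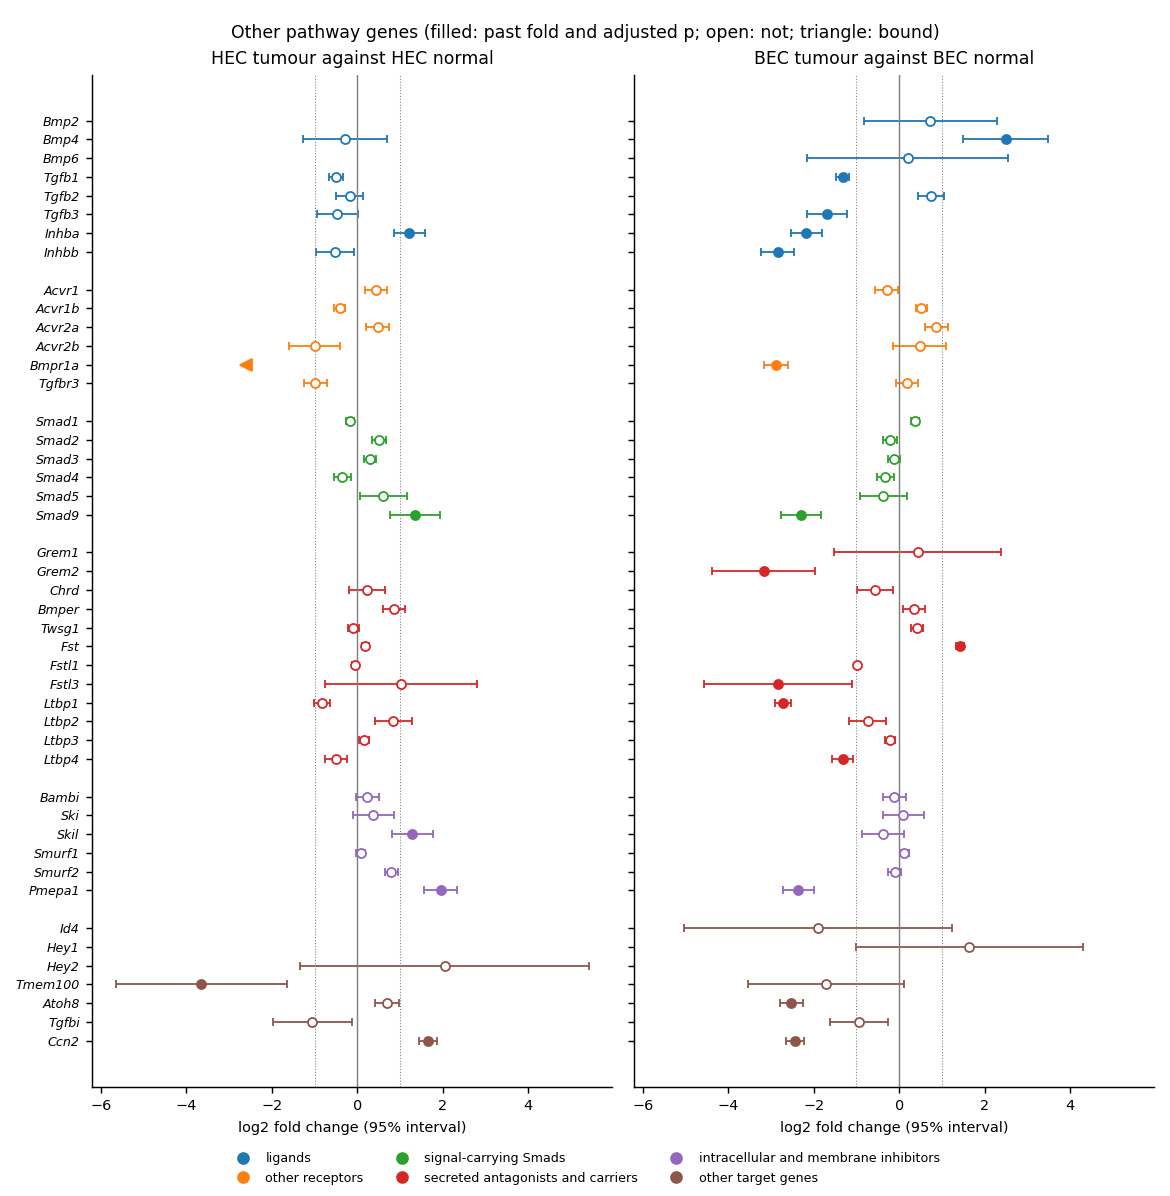
Log2 fold change with tumour of the other pathway genes in HECs (left) and BECs (right), with 95% intervals, coloured by list, filled where called and open where not. A triangle marks a bound for a gene at 0 in every library of a group, and genes under 10 normalised counts in both groups, or at 3 or fewer in 1 group, are not drawn. Pmepa1, Smad9, Inhba and Ccn2 are right of 0 in HECs and left of 0 in BECs.

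Without a tumour HECs and BECs differed most in a few of these genes. Bmpr1a held 18.3 normalised counts in HEC normal and 3281 in BEC normal (−7.49 ± 0.24, adjusted p = 4.02e-213), and it was at 0 in all 3 HEC tumour libraries, at least 147-fold lower than in BEC tumour when a floor of 3 per library is used. Smad9 held 29.3 against 1078 (−5.20 ± 0.28, adjusted p = 2.84e-75). Id4, the fourth Id gene, was at 0 in all 6 HEC libraries and averaged 67.1 in BEC normal, at least 22.4-fold higher. These BMP-branch genes were thus at or near the floor in HECs, whose Acvrl1, Smad6 and Id1 were within 2-fold of BEC normal. Bmp4 (3.52 ± 0.50, adjusted p = 1.33e-11) and Fst (2.07 ± 0.05) were higher in HECs, at 10058 against 877.3 and at 31594 against 7532, but each was the 1 called higher in its list. Of 8 tested ligands 4 were called lower, among them Inhbb (−3.50 ± 0.20) and Tgfb3 (−2.52 ± 0.24), and of 12 tested antagonists and carriers 6 were, among them Ltbp1 (−3.54 ± 0.10) and Fstl1 (−1.74 ± 0.03). Over all genes 15.1% were called lower and 17.1% higher. The medians were −1.94 for ligands and −1.25 for antagonists and carriers, beside 0.01 over all genes.

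The genes nearest to 2 members in pattern over the 12 endothelial libraries were found by the root mean square difference of centred log2 values, among 13290 genes with a mean of at least 100. For Id1 they were Hbegf (0.117), Pdgfb (0.122) and Hic1 (0.171), and for Acvrl1 they were Fyttd1 (0.233), Naa35 (0.260) and Dtwd1 (0.292). Among the members the closest pairs were Bmpr2 with Tgfbr1 (0.243), Eng with Tgfbr2 (0.254) and Bmpr2 with Tgfbr2 (0.288), followed by Smad6 with Id1 (0.384). The points share libraries, so these distances are a description.

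The EO771 libraries show the same genes in tumour cells with and without 12-HETE. Acvrl1 and Eng, which are mainly endothelial, had the lowest levels of the members in these cells, at 8.82 ± 1.02 and 25.3 ± 11.5 normalised counts per kb with vehicle, while Id1 had the highest (4185 ± 351). With 12-HETE 3 members fell, Acvrl1, Eng and Id3, against 7.79% of all 11602 genes called lower, and Tgfbr1 rose, against 2.38% called higher. Tgfbr1 held 546.3, 529.3 and 544.2 normalised counts with 12-HETE and 204.8, 188.2 and 309.2 with vehicle (1.21 ± 0.20, adjusted p = 6.72e-09). Id3 held 2304, 2599 and 2415 against 4337, 6501 and 3898 (−1.01 ± 0.19, adjusted p = 4.28e-07). Neither gene's groups overlapped.

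The other called members had few counts. Eng held 38.0, 46.3 and 39.4 with 12-HETE and 77.2, 155.8 and 73.7 with vehicle (−1.31 ± 0.35, adjusted p = 0.000845), and Acvrl1 held 13.4, 13.8 and 22.6 against 32.7, 39.2 and 41.0 (−1.18 ± 0.40, adjusted p = 0.00996). Vehicle replicate 2 stood apart in several members, being high for Eng, Smad6 and Id3 and low for Bmpr2 and Tgfbr2. Same-numbered EO771 libraries deviated together, so the fit was repeated with the replicate number as a block. It called 2 members, Eng and Tgfbr1, since Acvrl1 had an adjusted p of 0.0691 and Id3 a log2 fold change of −0.98. Without vehicle replicate 2 the calls were 2, Acvrl1 and Tgfbr1, with Eng at −0.88 and Id3 at −0.76. Without 12-HETE replicate 1 they were Eng and Tgfbr1, with Acvrl1 at −1.04 (adjusted p = 0.0845) and Id3 at −0.97. Acvrl1 also missed the adjusted p without vehicle replicate 3 (0.0612) or 12-HETE replicate 2 (0.0874).

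A further 4 members passed the adjusted p alone, as did 47.0% of all genes. Smad7 was lower, just short of 2-fold (−0.96 ± 0.14, adjusted p = 1.6e-10), with 833.9, 948.1 and 866.0 against 1560, 2044 and 1554, and Id1 was lower by less (−0.32 ± 0.10, adjusted p = 0.00304). Bmpr2 (0.64 ± 0.24, adjusted p = 0.0165) and Id2 (0.57 ± 0.11, adjusted p = 5.26e-06) were higher, so the 3 Id genes did not move together. Tgfbr2 (−0.16 ± 0.13, adjusted p = 0.295) and Smad6 (−0.45 ± 0.25, adjusted p = 0.128) passed neither rule. The median of the members was −0.39, beside 0.00 over all genes. Beside these changes the sum of 6 epithelial markers was 35291 to 36192 with 12-HETE and 50780 to 67007 with vehicle. The sum of 11 fibroblast and pericyte markers, nearly all of it Dcn, moved the other way, with 18188 to 19031 with 12-HETE and 6924 to 10884 with vehicle, and 2 of 3 tested ones were called higher. The part of these markers was not tested.

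**Figure D5:**
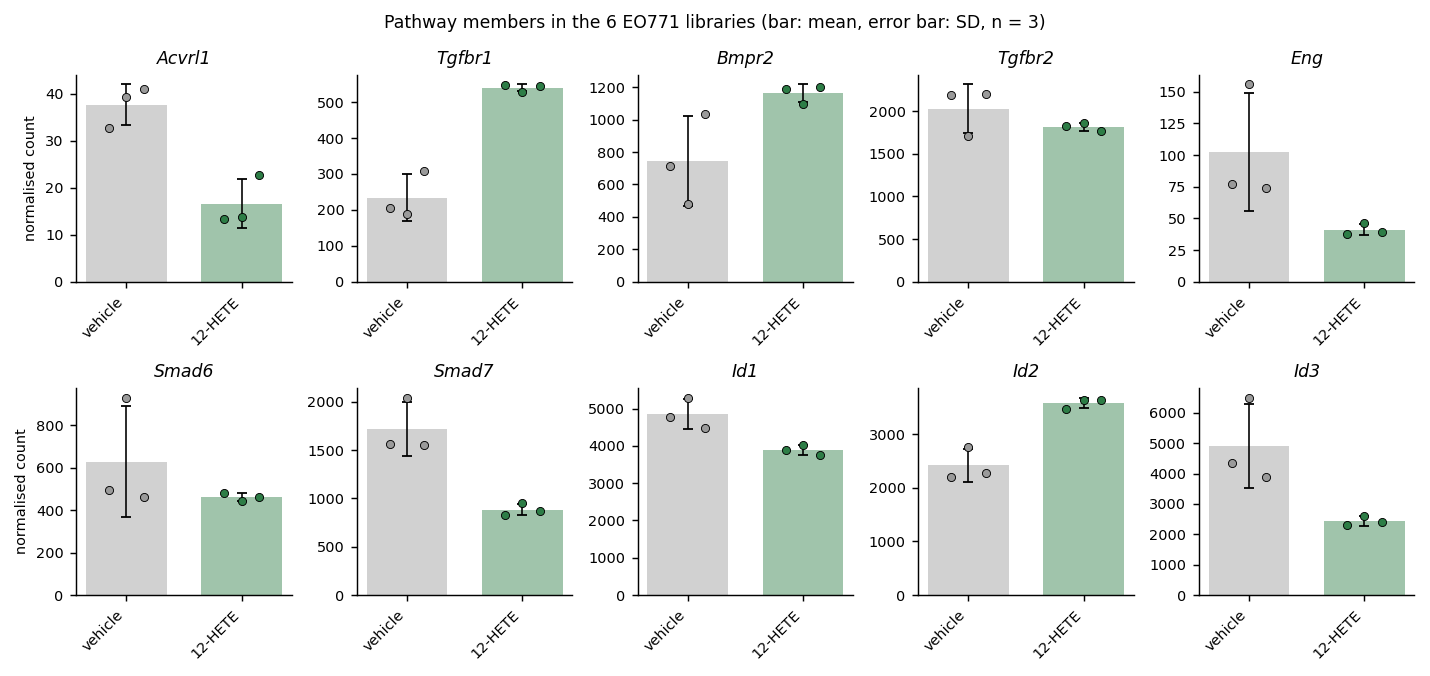
Normalised counts of the 10 members (vertical axes, linear, from 0) in EO771 cells with vehicle or 12-HETE, with 1 point per library, the mean as a bar and the SD as an error bar (n = 3). Tgfbr1 is higher in every 12-HETE library (529.3 to 546.3) and Id3 and Smad7 are lower, while the vehicle libraries spread more widely than the 12-HETE ones.

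Among the other pathway genes in EO771 cells 4 were called, all lower with 12-HETE, namely 1 of 4 tested ligands, 2 of 8 tested antagonists and carriers and 1 of 4 tested further targets. Over all genes 7.79% were called lower and 2.38% higher. Ctgf, the name of Ccn2 in this table, fell from 4558 to 1847 normalised counts (−1.30 ± 0.15, adjusted p = 8.41e-18), and Fstl3, an activin antagonist, from 247.3 to 115.8 (−1.10 ± 0.20, adjusted p = 1.68e-07). Tgfb2 and Ltbp1 fell from 39.2 and 40.6 to 4.98 and 0.999. The 4 tested further targets had a median of −0.79, beside 0.00 over all genes, and none of the 6 tested other receptors or 5 tested signal-carrying Smads was called.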

How the data were processed

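RNA-seq of 12 sorted endothelial samples and 6 EO771 samples was used, in 6 groups of 3. According to the study's methods the authors aligned reads with STAR to GRCm38 and counted genes with featureCounts. The deposited endothelial table holds whole numbers and was treated as estimated counts. The search for spacing among its low values gave about 3.71 (the step). The deposited EO771 table was treated as raw counts. The labels name the SMARTER library kit for every sample and the methods name NEB kits, so the kit of each library is not settled. Fat pad, tumour and lymph node were also digested differently.

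Lines with a mean under 10 were removed, as in the study's methods, leaving 18511 endothelial and 11602 EO771 genes. DESeq2 1.42.0 (R 4.3.3) was fitted with group as the only term, once over the 12 endothelial and once over the 6 EO771 libraries, with Benjamini-Hochberg adjustment over all genes tested. A gene was called at an adjusted p under 0.05 and a fold over 2. Errors are SE for fold changes and SD for levels. Fits were tested on simulated data. Alternatives were edgeR 4.0.16 quasi-likelihood, TMM size factors, no filter, a replicate block, other call rules, values divided by the step, only the groups compared, and each library left out in turn. Ratios were tested by exact permutation (scipy 1.17.1).

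Deviations of same-numbered EO771 libraries from their group means correlated at 0.111, 0.173 and 0.328. The fit was therefore also run there with the number as a block. The EO771 values reported are from the fit without the block unless said otherwise. Exon lengths and positions come from GENCODE on GRCm38, a later release than the authors' annotation, and promoter windows from RefSeq. The members and gene lists were chosen with earlier results of these data known. Named genes were the 10 members, the called genes of each other list (at most the 4 with the largest Wald statistic per comparison) and the 3 nearest genes of Acvrl1 and Id1. A gene of the list of further targets is not reported here, and it is left out of that list's counts and medians. Further marker lists held T cell, B cell, lymphatic and adipocyte genes, and their summed levels were at most 2728, 251, 24692 and 51 normalised counts in any endothelial library, with the T cell sum at 1468 or more in BEC tumour alone, nearly all of it Cd4. The lymphatic sum was mostly Lyve1 in BEC normal and both HEC groups (15420 in HEC tumour) and mostly Flt4 in BEC tumour (8856 against 3391 for Lyve1). The group means of Prox1 were 3.08 to 26.0. Replicates were compared with counting noise, and the median chi-square per degree of freedom over genes was 1.25 to 9.88 per group. No molecular identifiers are described, so reads can be copies of a molecule and errors cover the spread between libraries alone.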

Additional observations from a re-analysis of the deposited data

Results flagged for a closer look

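By the interaction test of the DESeq2 fit, 8 of the 10 members changed unequally with tumour in the 2 vessel types at an adjusted p under 0.05, a rule that 46.7% of all genes passed. The difference of log2 fold changes, HECs minus BECs, was 4.51 for Id3, 3.53 for Smad7, 3.07 for Smad6, 2.60 for Id2, 1.97 for Id1, 1.17 for Acvrl1, 0.79 for Eng and −0.58 for Tgfbr1. For the 5 Id and inhibitory Smad genes every tumour library lay above every normal library in HECs and below every normal library in BECs. Eng showed the same crossing at a smaller size, while Tgfbr1 rose by less than 2-fold in BECs (0.59) and was level in HECs (0.01). The share of all genes whose libraries separate in this way was not counted, so the crossing is a description of these genes. The tissue of origin and its digestion change along with cell type, and the BEC tumour libraries carried myeloid RNA (summed markers 102325 to 138302). In HEC tumour that sum was 22969 to 24347, mostly Cd68 (mean 23320), with C1qa and Adgre1 at 0. The part of tissue, digestion and myeloid RNA in these differences was not tested.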

How the results depend on the processing

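The members called numbered 2 in HEC normal against BEC normal, 4 in HEC tumour against BEC tumour, 4 in HEC tumour against HEC normal, 5 in BEC tumour against BEC normal, 6 in the interaction and 4 in EO771. These counts were equal under edgeR, TMM size factors and no filter. They were also equal with values divided by the step, which was run on the endothelial comparisons alone. The same held with only 2 groups, run on the endothelial comparisons other than the interaction. With the adjusted p alone they were 7, 6, 7, 9, 8 and 8, and with a test against a log2 fold change of 1 they were 2, 4, 2, 2, 5 and 0. The replicate block changed only EO771, to 2 members called. In the endothelial groups the correlations of same-numbered libraries ran from −0.015 to 0.126, which overlaps the EO771 range of 0.111 to 0.328. The labels give these libraries a shared number and nothing more. Leaving out 1 library at a time gave 2 to 3, 4 to 4, 4 to 4, 4 to 5, 5 to 6 and 2 to 5. Over all genes the calls were 5965, 4056, 1443, 4305, 4309 and 1180, with the adjusted p alone 11717, 10057, 6554, 9942, 8643 and 5450, and against a log2 fold change of 1 they were 3353, 1688, 169, 2078, 1776 and 411. The only members that changed sign did not pass the adjusted p in the fit as reported. Bmpr2 in HEC normal against BEC normal was 0.02 under edgeR and TMM and 0.005 under the replicate block, in HEC tumour against BEC tumour 0.004 with values divided by the step, and in the interaction −0.05 under edgeR and TMM and −0.011 under the replicate block. Tgfbr1 in HEC tumour against HEC normal was −0.02 under edgeR and TMM. Leaving out 1 library, Bmpr2 ranged from −0.21 to 0.27, −0.075 to 0.035, −0.11 to 0.02, −0.24 to 0.24 and −0.28 to 0.20 in the 5 endothelial comparisons in that order. In HEC tumour against HEC normal, Acvrl1 ranged from −0.23 to 0.14 and Tgfbr1 from −0.036 to 0.030. The difference in the log2 ratio of Acvrl1 to Tgfbr1 ranged from −1.63 to −0.94 in HEC normal against BEC normal, 0.31 to 0.65 in HEC tumour against BEC tumour, −0.26 to 0.14 in HEC tumour against HEC normal and −2.13 to −1.45 in BEC tumour against BEC normal. It was 0.138 without HEC tumour replicate 1 and 0.105 without HEC normal replicate 3, so its sign in HECs is not set. Testing against the 2-fold limit took away Smad6 and Smad7 in HEC tumour against HEC normal, Acvrl1, Smad7 and Id1 in BEC tumour against BEC normal, Acvrl1 in the interaction and all 4 members in EO771, since it asks for a change shown to lie beyond that limit. The counts behind Acvrl1 (13.4 to 41.0) and Eng (38.0 to 155.8) limit the EO771 values.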

Other observations

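The Acvrl1 to Tgfbr1 ratio was nearly equal in same-numbered HEC libraries with and without a tumour, at 1.05 and 1.03 in replicate 1, 1.50 and 1.44 in replicate 2 and 1.74 and 1.64 in replicate 3. The labels do not say that these numbers mark a shared mouse or day, and over all genes the deviations of same-numbered HEC libraries correlated at only 0.015, 0.040 and 0.057. Acvrl1 alone spread from 2649 to 4032 normalised counts in HEC tumour, while Eng there stayed between 21250 and 21300. The second BEC tumour library held 152.3 normalised counts of Smad7 against 721.7 and 738.4 in the others, whereas its Smad6 value (615.9) lay between theirs.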
